A study of Mus musculus with 8 samples.

Results

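The genes described here encode 9 oxidative enzymes of the liver that lie outside the cytochrome P450 family. They are the flavin-containing monooxygenases Fmo1, Fmo2, Fmo4 and Fmo5, the monoamine oxidases Maoa and Maob, the aldehyde oxidases Aox1 and Aox3, and Xdh, which encodes xanthine dehydrogenase. They were chosen by enzyme family and name, and make up 9 of the 46517 genes in the count table. All 9 passed the filter on low counts, which 13278 genes passed. RNA-Seq was performed on aliquots of liver tissue from male C57BL/6 mice. The mice were placed on a NASH-inducing diet at 6 weeks of age for 25 weeks. They were euthanized at 31 weeks of age after a 16-h fast. The 4 MøFoxO1-KO mice carried FoxO1 loxP/loxP alleles and Lyz2-Cre, and the 4 WT littermates carried the loxP/loxP alleles without Cre, so both genotypes shared the floxed alleles, the strain, the diet and the fast. Lyz2-Cre acts in myeloid cells throughout the body, and cells without Lyz2 expression keep the floxed gene undeleted. The question was which hepatic transcripts differed between NASH diet–fed mice with and without myeloid FoxO1. The mice are named WT22 to WT25 and KO26 to KO29.

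Flavin-containing monooxygenases are microsomal enzymes that use FAD and NADPH to oxygenate nitrogen and sulfur atoms of drugs, dietary amines and endogenous thiols. Monoamine oxidases sit on the outer mitochondrial membrane, where they deaminate serotonin, catecholamines and trace amines with the release of hydrogen peroxide. Aldehyde oxidases and xanthine dehydrogenase are related cytosolic enzymes that share a molybdenum cofactor, iron-sulfur clusters and FAD. The former oxidize aldehydes and nitrogen heterocycles, and the latter makes uric acid from hypoxanthine and xanthine in purine breakdown.

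Promoter sequences of RefSeq (build GRCm38.p6), each running from 250 bases before to 50 bases after an annotated start, are shown for the genes on which the results turn. Maoa was the member that passed the adjusted test, Fmo2 was the other member whose groups did not overlap, and Aox1 and Aox3 are neighbors with estimates of opposite sign. Of the 9 genes, 6 had an entry. Capitals mark matches, on either strand, to the forkhead motif TGTTTAC, the Sp1 motif GGGCGG, the CCAAT box (CCAAT) and the TATA box (TATAAA), and no marked matches overlapped. The Maoa promoter lies at chrX:16619448-16619747, the Fmo2 promoter at chr1:162898444-162898743 on the minus strand, the Aox1 promoter at chr1:58029719-58030018 and the Aox3 promoter at chr1:58112886-58113185. Fmo2 had another entry, at chr1:162898709-162899008, and the one shown was chosen for its match.
Maoa: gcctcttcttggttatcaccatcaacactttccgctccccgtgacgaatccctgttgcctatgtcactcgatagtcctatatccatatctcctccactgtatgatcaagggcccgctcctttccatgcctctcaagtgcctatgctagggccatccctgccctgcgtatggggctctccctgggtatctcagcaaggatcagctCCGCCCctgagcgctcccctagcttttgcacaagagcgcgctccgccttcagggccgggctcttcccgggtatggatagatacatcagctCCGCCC
Fmo2: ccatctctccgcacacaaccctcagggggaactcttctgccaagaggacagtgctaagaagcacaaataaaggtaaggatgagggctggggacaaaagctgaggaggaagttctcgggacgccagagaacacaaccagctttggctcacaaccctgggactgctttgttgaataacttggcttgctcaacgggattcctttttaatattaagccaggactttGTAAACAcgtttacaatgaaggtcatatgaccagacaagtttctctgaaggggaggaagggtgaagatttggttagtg
Aox1: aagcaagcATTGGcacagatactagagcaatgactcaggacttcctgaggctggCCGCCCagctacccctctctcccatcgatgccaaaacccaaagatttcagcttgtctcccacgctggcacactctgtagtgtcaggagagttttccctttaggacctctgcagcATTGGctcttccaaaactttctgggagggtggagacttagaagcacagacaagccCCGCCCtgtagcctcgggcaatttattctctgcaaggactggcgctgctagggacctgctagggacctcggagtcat
Aox3: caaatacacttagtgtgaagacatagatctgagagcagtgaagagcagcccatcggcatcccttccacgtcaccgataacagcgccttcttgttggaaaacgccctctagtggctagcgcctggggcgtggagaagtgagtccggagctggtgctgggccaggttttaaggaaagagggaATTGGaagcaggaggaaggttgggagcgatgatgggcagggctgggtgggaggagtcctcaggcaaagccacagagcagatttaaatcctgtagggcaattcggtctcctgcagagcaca
The Maoa promoter held 2 Sp1 motifs and none of the others. The Aox1 promoter held 2 Sp1 motifs and 2 CCAAT boxes, whereas the Aox3 promoter held 1 CCAAT box alone. The Fmo2 promoter shown held 1 forkhead motif and none of the others, and its other entry held no match. GC content was 57.7% for Maoa, 47.7% for the Fmo2 promoter shown, 54.3% for Aox1 and 55% for Aox3, against a median of 52.7% over all promoters. Of 32851 RefSeq promoters of this length, 3.65% held the forkhead motif, 35.7% the Sp1 motif, 37.4% the CCAAT box and 13.6% the TATA box. The Fmo2 entry shown was picked for its forkhead motif, so its match cannot be set against the 3.65%. The Fmo4 and Fmo5 entries, not shown, held no forkhead motif. These matches describe letters in a window, and binding was not measured.

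The libraries held between 15253218 and 18025481 counts. The targeted gene, Foxo1, which encodes the deleted transcription factor, had 422, 467, 328 and 461 raw counts in the WT livers and 448, 253, 438 and 259 in the MøFoxO1-KO livers. The Foxo1 groups overlapped, and the log2 fold change was -0.17 (adjusted P = 0.686), so Foxo1 in bulk liver tissue does not check the genotype labels. Across all tested genes the median log2 fold change was -0.01. Hepatocyte markers were present at high levels, with summed normalized counts from 1221370 to 1662460 in WT livers and 1445400 to 2070810 in livers of MøFoxO1-KO mice. Of 9 hepatocyte markers, 6 had a positive and 3 a negative log2 fold change (median 0.15, from 0.053 to 0.34 with 1 mouse left out). Serpina1c, which encodes a serum protease inhibitor, was the 1 hepatocyte marker that passed in edgeR (log2 fold change 1.49 ± 0.24 SE, adjusted P = 0.0370, above 0.05 without any 1 of WT22, WT23, WT24, KO26, KO27 or KO29), and Apoa1 (1.07, adjusted P = 0.0765) also passed with DESeq2 (1.43e-05) and in edgeR without the filter on low counts (0.0302). Of 14 macrophage and Kupffer cell markers, 13 had a positive log2 fold change, with a median of 0.95 (0.45 without KO29). Their sum ranged from 4286 to 7732 normalized counts in WT livers and from 5181 to 22479 in MøFoxO1-KO livers. None of them passed the adjusted threshold in edgeR and 7 had an unadjusted P under 0.05, whereas Marco and Timd4, receptors of Kupffer cells, passed with DESeq2 (0.000498 and 0.000158) and in edgeR without the filter (0.00583 and 0.0130). All 6 B and plasma cell markers (median 0.73, or 0.34 without KO29), all 4 tested T and NK cell markers (median 0.41, from 0.18 without WT25 to 0.93 without WT22) and all 10 endothelial markers (median 0.24, from 0.10 without WT23 to 0.42 without WT22) were positive, with 0 calls in edgeR or DESeq2 and 0 at an unadjusted P under 0.05. Of 5 tested monocyte and neutrophil markers, 2 were positive and 3 negative (median -0.05, from -0.39 without KO29 to 0.42 without WT24). Of 6 tested cholangiocyte markers, 1 was positive and 5 negative (median -0.21, from -0.29 without WT23 to -0.021 without WT25). Of 2 tested adipocyte markers, 1 was positive and 1 negative (median 0.040, from -3.89 without KO28 to 0.30 without WT22). The sum of all 6 listed adipocyte markers ran from 414 to 2568 in WT livers and from 195 to 4712 in MøFoxO1-KO livers. These lists also had 0 calls in edgeR or DESeq2 and 0 at an unadjusted P under 0.05. Of 10 stellate cell and fibroblast markers, 4 were positive and 6 negative (median -0.12, from -0.26 without WT23 to -0.028 without KO27), with a sum from 4850 to 7727 in WT livers and from 5170 to 8580 in MøFoxO1-KO livers. Of these, 0 passed in edgeR, 3 had an unadjusted P under 0.05 and Col1a1, a fibrillar collagen, passed with DESeq2 (0.0466). Of 12 pericentral hepatocyte markers 6 were positive and 6 negative (median -0.01, up to 0.19 without KO28), and of 12 periportal markers 9 were positive and 3 negative (median 0.22, but 0.011 without KO29, 0.023 without WT24 and 0.41 without WT23). In each of these lists 0 markers passed in edgeR, 3 had an unadjusted P under 0.05 and 1 passed with DESeq2, namely Slc1a2 (0.00472, and 0.0348 in edgeR without the filter) and Sdsl (0.0414). For comparison, 8.06% of all tested genes were lower and 8.65% higher at an unadjusted P under 0.05 in edgeR. With DESeq2, 1.78% of its tested genes passed as lower and 2.25% as higher. The part of cell composition in the results below was not tested.

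Maoa, which encodes the monoamine oxidase that prefers serotonin and noradrenaline, was lower in MøFoxO1-KO livers. Its normalized counts (counts scaled to a common library size) were 176, 179, 186 and 182 in WT22, WT23, WT24 and WT25. They were 61.3, 59.7, 52.2 and 102 in KO26, KO27, KO28 and KO29. The groups did not overlap, the WT livers lay close together, and KO29 was the highest of its group. The means were 181 ± 4.06 for WT and 68.8 ± 22.4 for MøFoxO1-KO livers (SD, n = 4 each), which left 38.0% of the WT level on the fitted scale. The log2 fold change was -1.39 ± 0.21 (SE, 95% confidence interval -1.87 to -0.92, edgeR quasi-likelihood test, Benjamini-Hochberg adjusted P = 0.0337). In bulk tissue, fewer cells that express a gene and less RNA per cell cannot be told apart. Maoa (ENSMUSG00000025037) lies on the X chromosome at chrX:16619698-16687818 (GRCm38, plus strand). Of its 50-base words, 3.98% also occurred, on either strand, in transcripts of other genes.

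Omitting single mice removed the Maoa call in 6 of 8 cases. Leaving out 1 mouse at a time gave log2 fold changes between -1.65 and -1.27, with adjusted P from 0.0112 to 0.138. The call held without KO28 (adjusted P = 0.0385) and without KO29 (0.0112). It was lost without WT22 (0.0856), WT23 (0.0581), WT24 (0.0659), WT25 (0.0751), KO26 (0.115) or KO27 (0.138). With all 8 mice the adjusted P of Maoa was 1.26e-06 with DESeq2 and 0.0318 with limma-voom. It was 0.00583 in edgeR without the filter on low counts. An exact 2-sided permutation test of the normalized counts gave P = 0.0286, the smallest that 4 against 4 mice allow.

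The spread of Maoa among WT livers was smaller than its counting error. The coefficient of variation was 2.25% among WT and 32.6% among MøFoxO1-KO livers. Counting error alone gives 7.28% at the mean raw count of the WT livers and 12.4% at that of the MøFoxO1-KO livers. The 4 WT values thus lay closer together than counting error alone gives on average.

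Maob, which encodes the isoform that prefers phenylethylamine, showed a smaller difference that did not pass the adjusted test. The normalized counts of Maob were 3175, 4230, 2181 and 3240 in the WT livers and 2829, 2119, 2471 and 2023 in the MøFoxO1-KO livers, in the order of the mouse numbers. The groups overlapped, with WT24 among the MøFoxO1-KO values. Maob averaged 3206 ± 837 against 2360 ± 367 (SD, n = 4 each), and its log2 fold change was -0.44 ± 0.20 (SE, adjusted P = 0.296 by edgeR with Benjamini-Hochberg adjustment, exact permutation P = 0.0857). Without WT23 the log2 fold change of Maob was -0.28. Maoa and Maob (ENSMUSG00000040147, chrX:16709282-16817366, minus strand) face each other tail to tail, 21463 bases apart.

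The count ratio of Maoa to Maob in each liver was compared between genotypes because both genes lie side by side and share their reaction. Maoa counts were 5.55, 4.23, 8.51 and 5.62% of Maob counts in the WT livers. They were 2.17, 2.82, 2.11 and 5.04% in the MøFoxO1-KO livers. The ratio in KO29 lay above that in WT23, so the groups overlapped. The mean log2 ratio went from -4.11 ± 0.42 for WT to -5.14 ± 0.58 for MøFoxO1-KO livers (SD, n = 4 each), a difference of -1.03 (exact 2-sided permutation test, P = 0.0571, Benjamini-Hochberg adjusted P = 0.0857 over 3 ratios).

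**Figure D1:**
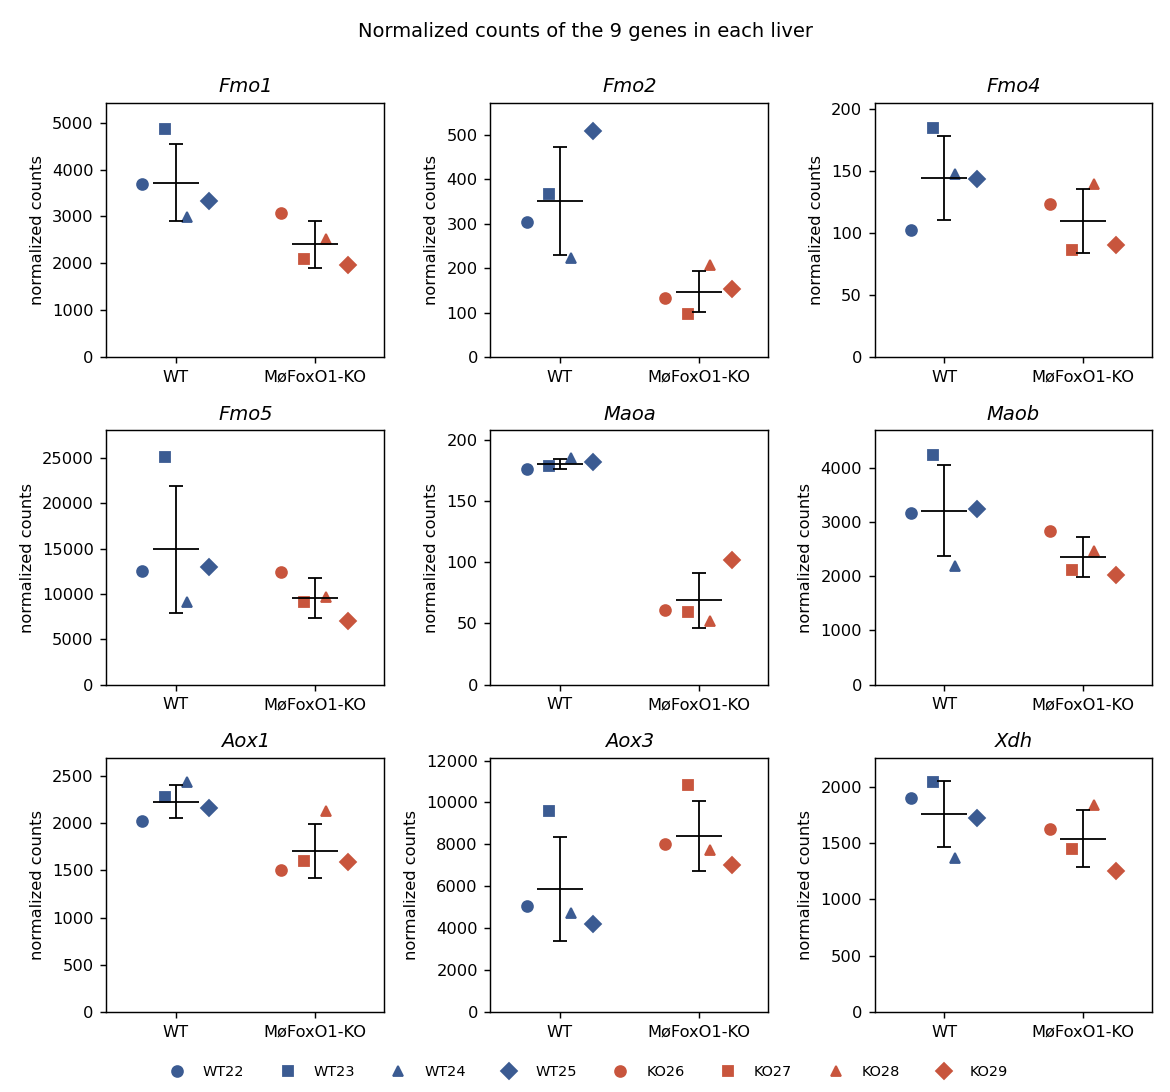
Normalized counts (linear axes from 0) of the 9 genes in each of 8 livers, with 1 symbol per mouse, WT in blue and MøFoxO1-KO in red; black lines give the mean and SD of 4 mice. The Maoa and Fmo2 groups do not overlap, whereas the groups of the other 7 genes do, and WT23 stands above the other WT livers for Fmo5 and Aox3.

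The flavin-containing monooxygenases had negative log2 fold changes for all 4 members, and none passed the adjusted test in edgeR. Fmo2, the form known as the main one in lung, had 304, 367, 222 and 509 normalized counts in the WT livers. The MøFoxO1-KO livers had 133, 95.5, 208 and 152 normalized counts of Fmo2. Every MøFoxO1-KO liver lay below every WT liver, with KO28 and WT24 the closest pair. Fmo2 averaged 350 ± 121 (SD, n = 4) and 147 ± 46.8 (SD, n = 4), with 42.2% of the WT level remaining on the fitted scale. Its log2 fold change was -1.25 ± 0.28 (SE, 95% confidence interval -1.88 to -0.61, edgeR P = 0.00133, adjusted P = 0.102), with an exact permutation P of 0.0286. The adjusted P of Fmo2 was 0.00245 with DESeq2 and 0.0233 in edgeR without the filter on low counts, so its call depended on the method. Leaving out 1 mouse at a time gave log2 fold changes between -1.45 and -1.01 for Fmo2, with adjusted P from 0.0595 to 0.310.

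Fmo1, a broad-specificity form active on tertiary amines, had 3697, 4873, 2984 and 3325 normalized counts in the WT livers and 3072, 2085, 2518 and 1955 in the MøFoxO1-KO livers. KO26 lay above WT24, and the other 3 MøFoxO1-KO livers lay below every WT liver. Fmo1 averaged 3720 ± 822 (SD, n = 4) and 2407 ± 504 (SD, n = 4), with a log2 fold change of -0.63 ± 0.19 (SE, P = 0.00835, adjusted P = 0.171 in edgeR, exact permutation P = 0.0571). Its 50-base words were shared with transcripts of other genes at 7.02%, none of them a member of the families described here.

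Fmo5, a Baeyer-Villiger monooxygenase that inserts oxygen beside carbonyl groups, was the most variable of the WT values. It had 12492, 25082, 9158 and 12952 normalized counts in the WT livers and 12457, 9116, 9637 and 7046 in the MøFoxO1-KO livers. WT23 was far above the other livers, and the groups overlapped. Fmo5 averaged 14921 ± 6982 (SD, n = 4) and 9564 ± 2230 (SD, n = 4), and its log2 fold change of -0.64 ± 0.30 (SE, edgeR adjusted P = 0.316, exact permutation P = 0.114) moved to -0.27 without WT23.

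Fmo4, a less abundant form, had 102, 185, 148 and 143 normalized counts in the WT livers and 124, 86.0, 140 and 90.7 in the MøFoxO1-KO livers. The groups overlapped, with WT22 below KO26 and KO28. The log2 fold change of Fmo4 was -0.39 ± 0.23 (SE, edgeR adjusted P = 0.425, exact permutation P = 0.143), and it was -0.25 without WT23 and -0.53 without WT22. Fmo1 (ENSMUSG00000040181, chr1:162829561-162866610), Fmo2 (ENSMUSG00000040170, chr1:162874317-162898726) and Fmo4 (ENSMUSG00000026692, chr1:162793188-162813972) lie together on the minus strand within 105539 bases, and Fmo5 (ENSMUSG00000028088, chr3:97628804-97655282) lies elsewhere.

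The ratio of Fmo5 to Fmo1 counts did not pass the test. It was 3.38, 5.15, 3.07 and 3.90 in the WT livers and 4.05, 4.37, 3.83 and 3.60 in the MøFoxO1-KO livers. The groups overlapped, with all 4 MøFoxO1-KO values inside the WT range. The difference in log2 ratio was 0.06 (exact 2-sided permutation test, P = 0.771, adjusted P = 0.771 over 3 ratios), and it took the opposite sign, -0.044, without WT24.

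Among the molybdenum enzymes, Aox1 and Aox3, the neighboring aldehyde oxidases that mouse liver uses most, had estimates of opposite sign, and neither passed the adjusted test. Aox1 had 2026, 2279, 2438 and 2157 normalized counts in the WT livers and 1499, 1596, 2132 and 1592 in the MøFoxO1-KO livers. KO28 lay inside the WT range and the other 3 MøFoxO1-KO livers lay below it. Aox1 averaged 2225 ± 175 (SD, n = 4) and 1705 ± 289 (SD, n = 4), with a log2 fold change of -0.38 ± 0.14 (SE, edgeR P = 0.0186, adjusted P = 0.216, exact permutation P = 0.0571).

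Aox3 had 5072, 9573, 4716 and 4187 normalized counts in the WT livers and 8005, 10847, 7752 and 7013 in the MøFoxO1-KO livers. WT23 lay among the MøFoxO1-KO values, and the other 3 WT livers lay below all of them. Aox3 averaged 5887 ± 2484 (SD, n = 4) and 8404 ± 1682 (SD, n = 4), and it was the only one of the 9 genes with a positive log2 fold change, 0.51 ± 0.26 (SE, 95% confidence interval -0.07 to 1.10, edgeR adjusted P = 0.359, exact permutation P = 0.114). Without WT23 the log2 fold change of Aox3 was 0.85 (adjusted P = 0.108).

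Aox1 (ENSMUSG00000063558, chr1:58029931-58106413) and Aox3 (ENSMUSG00000064294, chr1:58113130-58200698) lie on the plus strand with 6716 bases between the end of the former and the start of the latter. Aox1 counts were 40.0, 23.8, 51.7 and 51.5% of Aox3 counts in the WT livers. They were 18.7, 14.7, 27.5 and 22.7% in the MøFoxO1-KO livers. WT23 was the single WT liver below a MøFoxO1-KO liver, KO28. The mean log2 ratio went from -1.33 ± 0.53 for WT to -2.30 ± 0.39 for MøFoxO1-KO livers (SD, n = 4 each), a difference of -0.97 (exact 2-sided permutation test, P = 0.0571, Benjamini-Hochberg adjusted P = 0.0857 over 3 ratios). The 2 genes had no 50-base words in common.

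**Figure D2:**
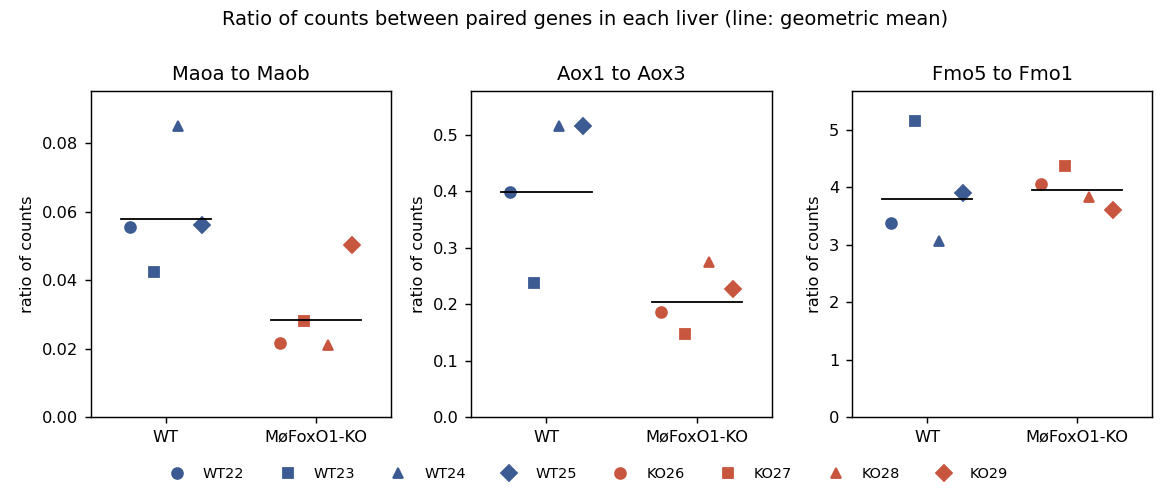
Ratio of counts (linear axes from 0) of Maoa to Maob, Aox1 to Aox3 and Fmo5 to Fmo1 in each liver, with 1 symbol per mouse and a line at the geometric mean of 4 mice. KO29 reaches the WT range of the Maoa ratio, WT23 reaches the MøFoxO1-KO range of the Aox1 ratio, and all MøFoxO1-KO values of the Fmo5 ratio lie within the WT range.

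Xdh, which encodes the enzyme that forms uric acid, showed no detectable difference at this spread. It had 1899, 2039, 1370 and 1718 normalized counts in the WT livers and 1623, 1443, 1836 and 1249 in the MøFoxO1-KO livers. The groups overlapped over most of their range. The log2 fold change of Xdh (ENSMUSG00000024066, chr17:73883908-73950182, minus strand) was -0.19 ± 0.16 (SE, 95% confidence interval -0.55 to 0.17, edgeR adjusted P = 0.591), and it ranged from -0.30 without WT24 to -0.11 without WT23 or KO29. Of its 50-base words, 9.60% also occurred, on either strand, in transcripts of other genes. The words came from all annotated transcripts of Xdh, with 9296 words against 4587 counted exon bases, so this share does not describe the counted exons alone.

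Counted over the 9 genes, 8 log2 fold changes were negative and 1 was positive, with a median of -0.44 (-0.28 without WT23 and -0.59 without WT24), whereas 6861 of all 13278 tested genes were negative and 6417 positive. At an adjusted P under 0.05 in edgeR, 1 member was lower (Maoa), against 0.173% of all tested genes, and 0 were higher, against 0.121%. At an unadjusted P under 0.05, 5 members were lower (Fmo1, Fmo2, Maoa, Maob and Aox1), against 8.06% of all tested genes, and 0 were higher, against 8.65%. Every MøFoxO1-KO liver lay below every WT liver for 2 members (Fmo2 and Maoa), against 4.71% of all tested genes, and above for 0, against 5%. With DESeq2, 2 members passed an adjusted P of 0.05 as lower (Maoa and Fmo2), against 1.78% of its tested genes, and 0 as higher, against 2.25%. No test was run on the members as a group. No other gene of the count table had exons that overlapped those of the 9 genes.

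**Figure D3:**
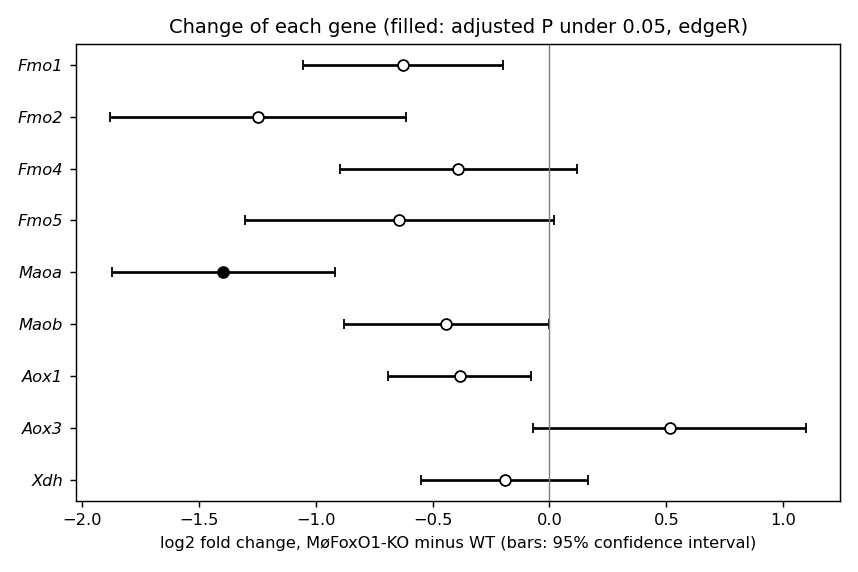
Log2 fold change (MøFoxO1-KO minus WT) of each gene with its 95% confidence interval from edgeR; a filled point marks an adjusted P under 0.05. Maoa is the 1 filled point, at -1.39, and Aox3 is the 1 gene to the right of 0, at 0.51.

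Some members shared their extreme mice and others did not. Fmo1, Fmo5 and Maob had the same highest livers (WT23 and KO26) and the same lowest livers (WT24 and KO29). WT23 was the highest WT liver for 6 of the 9 genes and WT24 the lowest for 5. KO28 was the highest MøFoxO1-KO liver for 4 genes and KO26 for 3, and KO29 was the lowest for 5. For Maoa, KO29 was the highest MøFoxO1-KO liver, as for no other member. WT24 was its highest WT liver, as for Aox1, but the WT values of Maoa spread less than counting error gives on average.

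Levels between genes were compared as CPM (counts scaled to library size) per kilobase of exon, with the TMM scaling of edgeR. In WT livers Fmo5 was highest at 160 ± 75.0 (SD, n = 4), followed by Maob at 70.1 ± 18.3, Aox3 at 51.0 ± 21.5 and Fmo1 at 36.0 ± 7.95. Xdh at 23.3 ± 3.85 and Aox1 at 15.6 ± 1.23 came next, and Fmo2 at 3.81 ± 1.31, Maoa at 2.64 ± 0.0594 and Fmo4 at 2.38 ± 0.557 were lowest. Neighbors in this order that overlapped were Maob with Aox3, Aox3 with Fmo1, Fmo2 with Maoa and Maoa with Fmo4.

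In MøFoxO1-KO livers the order per length was Fmo5 at 103 ± 23.9, Aox3 at 72.8 ± 14.6, Maob at 51.6 ± 8.02, Fmo1 at 23.3 ± 4.88 and Xdh at 20.4 ± 3.33 (SD, n = 4). Aox1 followed at 12.0 ± 2.02, and Fmo4 at 1.81 ± 0.425, Fmo2 at 1.60 ± 0.508 and Maoa at 1.01 ± 0.328 were lowest. Fmo5 and Aox3 overlapped, as did Aox3 and Maob, Fmo1 and Xdh, Fmo4 and Fmo2, and Fmo2 and Maoa. Maoa, the gene that was lower by the adjusted test, was among the least abundant of the 9 in both genotypes.

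**Figure D4:**
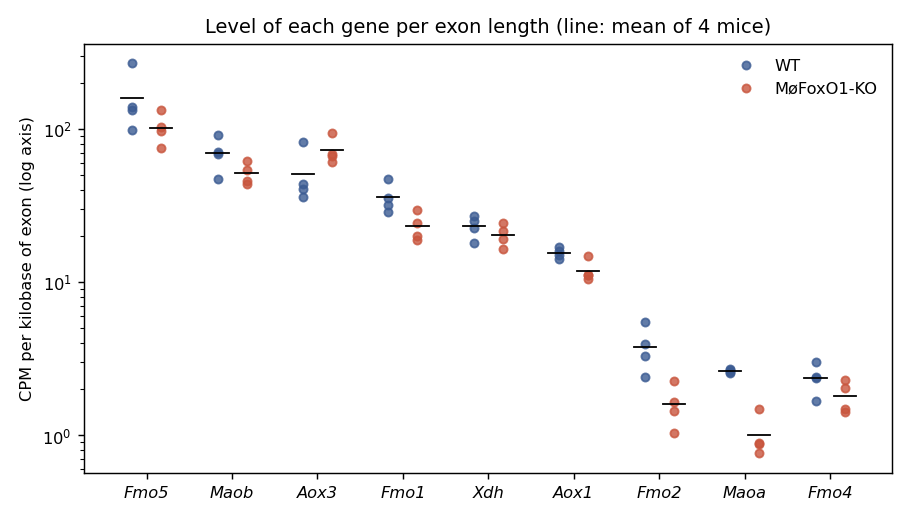
Level of each gene as CPM per kilobase of exon (log axis) in 4 WT and 4 MøFoxO1-KO livers, ordered by the WT mean; points are mice and lines are means. Fmo5 leads in both genotypes, at 160 and 103, and Fmo2, Maoa and Fmo4 lie lowest.

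The related genes Fmo6, Fmo9, Aox2 and Aox4 were nearly silent in these male livers and had too few counts to be tested. Fmo6 had 4 raw counts over the WT livers and 0 over the MøFoxO1-KO livers, and Aox2 had 14 and 6. Fmo9 and Aox4 had 0 counts in every liver, which allows up to 3 counts per liver for counting error alone.

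The 5 genes whose profile over the 8 mice was nearest to that of Maoa were taken by the root mean square difference of centered log2 values. They were Lgals1, which encodes galectin-1, at 0.245, Cd36, a fatty acid transporter, at 0.285, Cdkn2c, a cell cycle inhibitor, at 0.290, Nqo1, a quinone reductase, at 0.297, and Arhgap19 at 0.300. The log2 fold changes were -1.25 for Lgals1 (adjusted P = 0.0337), -1.59 for Cd36 (0.00935), -0.99 for Cdkn2c (0.113), -1.22 for Nqo1 (0.0520) and -0.84 for Arhgap19 (0.187). The Lgals1 call was lost without any 1 of WT22, WT23, WT25, KO26 or KO27, and that of Cd36 held without any 1 of the 8. A profile near that of Maoa includes the difference between genotypes, so these fold changes are not separate evidence.

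Pathways that neighbor those of these enzymes were described by lists of genes. Of all tested genes, 8.06% were lower and 8.65% higher at an unadjusted P under 0.05 in edgeR. With DESeq2, 1.78% of its tested genes passed as lower and 2.25% as higher. Every MøFoxO1-KO liver lay below every WT liver for 4.71% of all tested genes and above for 5%. The molybdenum cofactor list, which holds the genes that build or use the cofactor of the aldehyde oxidases and Xdh, had 3 positive and 5 negative log2 fold changes among 8 tested genes, with a median of -0.11 (0.065 without WT23), 0 calls in edgeR or DESeq2 and 0 genes at an unadjusted P under 0.05. Its smallest P values belonged to Marc2, an amidoxime reductase, at 0.28 (adjusted P = 0.317), and Mocs2, a subunit of molybdopterin synthase, at 0.12 (adjusted P = 0.672).

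Of 14 amine metabolism genes 10 were tested, with 4 positive and 6 negative log2 fold changes and a median of -0.11 (from -0.21 without KO28 to -0.0093 without WT23). In edgeR 0 genes passed the adjusted threshold and 2 had an unadjusted P under 0.05, and with DESeq2 1 passed, Smox. Smox, which encodes spermine oxidase, averaged 125 ± 36.9 normalized counts for WT against 68.3 ± 14.5 for MøFoxO1-KO livers (SD, n = 4 each) without overlap (log2 fold change -0.87 ± 0.25 SE, edgeR adjusted P = 0.148, DESeq2 adjusted P = 0.0377). Paox, which oxidizes acetylated polyamines, had a log2 fold change of 0.43 (adjusted P = 0.244). Pnmt had 0 counts.

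The purine breakdown list also held genes that rebuild nucleotides (Adk, Hprt and Aprt). It had 9 positive and 4 negative log2 fold changes among 13 tested genes. Its median was 0.23 (0.059 without KO29, 0.12 without WT24 and 0.14 without WT23). In edgeR 1 gene passed, Nt5e, and 5 had an unadjusted P under 0.05. With DESeq2 2 passed, Nt5e and Urah. Nt5e, which encodes the ectonucleotidase CD73 that makes adenosine from AMP, had 378, 660, 191 and 448 normalized counts in the WT livers and 45.1, 34.6, 84.5 and 40.3 in the MøFoxO1-KO livers. The Nt5e groups did not overlap, and its log2 fold change was -3.02 ± 0.40 (SE, edgeR adjusted P = 0.0171). Leaving out 1 mouse at a time gave log2 fold changes between -3.37 and -2.71 for Nt5e, and the adjusted P passed 0.05 (up to 0.0916) without WT25, KO26, KO27 or KO29. Further genes downstream of Xdh were named after their values were seen. Uox (urate oxidase) had a log2 fold change of 0.25 (edgeR adjusted P = 0.329) and Urah (hydroxyisourate hydrolase) of 0.60 (edgeR adjusted P = 0.0968, and 0.000692 with DESeq2). For Uox and Urah every MøFoxO1-KO liver lay above every WT liver, which held for 5% of all tested genes. Urad had a log2 fold change of 0.89 (edgeR adjusted P = 0.446), and its groups overlapped.

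Of 6 flavin supply genes, 2 were positive and 4 negative, with a median of -0.09 (from -0.15 without WT23 to -0.040 without WT24), 0 calls in edgeR or DESeq2 and 2 genes at an unadjusted P under 0.05. Slc25a32, a mitochondrial carrier linked to FAD and folate transport, had a log2 fold change of -1.52 (adjusted P = 0.208) on only 33.6 ± 24.2 and 11.5 ± 5.27 (SD, n = 4) normalized counts, and Flad1, which encodes FAD synthase, of 0.31 (adjusted P = 0.219). Of 10 genes for microsomal electron transfer and NADPH supply, 2 were positive and 8 negative, with a median of -0.09 (from -0.16 without WT25 to -0.037 without WT23). In edgeR 0 of these passed the adjusted threshold and 3 had an unadjusted P under 0.05, and with DESeq2 1 passed, Me1. Me1, the cytosolic malic enzyme that makes NADPH, averaged 2532 ± 667 normalized counts for WT against 637 ± 498 for MøFoxO1-KO livers (SD, n = 4 each) without overlap (log2 fold change -1.99 ± 0.46 SE, edgeR adjusted P = 0.111). The adjusted P of Me1 was 0.0143 with DESeq2 and 0.0170 in edgeR without the filter. Pgd, an enzyme of the pentose phosphate pathway, had a log2 fold change of -0.57 (adjusted P = 0.148).

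**Figure D5:**
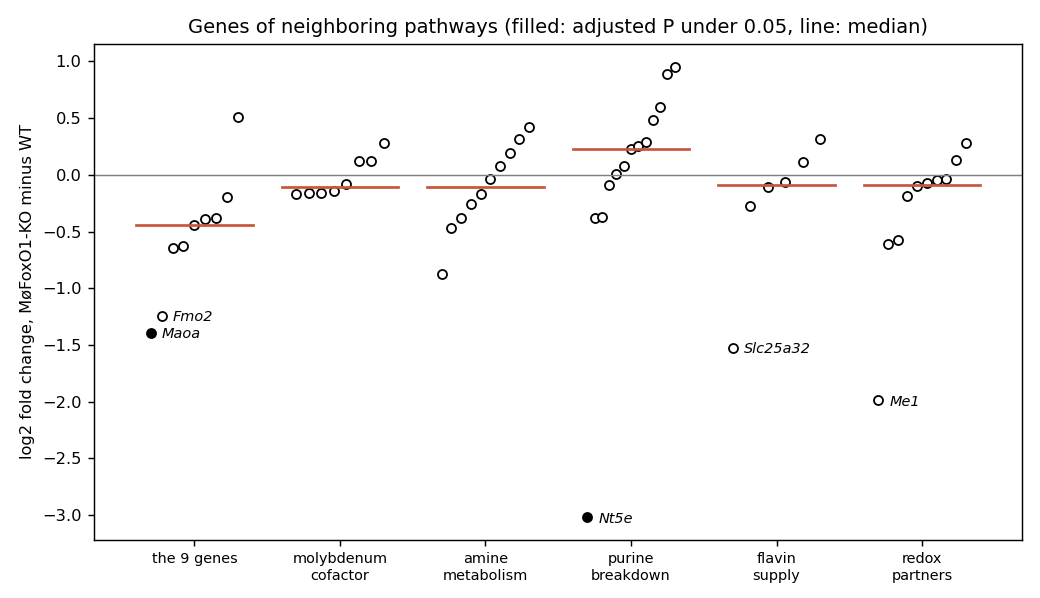
Log2 fold change (MøFoxO1-KO minus WT) of every tested gene of the 9 enzymes and of 5 neighboring lists; each point is a gene, filled points have an adjusted P under 0.05 in edgeR, and red lines are medians. Maoa at -1.39 and Nt5e at -3.02 are the filled points, and the medians run from -0.44 for the 9 genes to 0.23 for purine breakdown.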

How the data were processed

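Poly(A) RNA of liver tissue aliquots from 4 MøFoxO1-KO mice and 4 WT littermates was sequenced. The authors deposited raw read counts per gene, not normalized. The submitters' processing notes name STAR, featureCounts and mm10, and versions, strand setting and multimapping are not given in the sources used here. Genes with low counts were removed with filterByExpr (minimum count 10, minimum total 15), and TMM-scaled counts were compared in edgeR 4.0.16 (R 4.3.3) by glmQLFTest, the quasi-likelihood test, without covariates. P values were adjusted over 13278 genes by Benjamini-Hochberg, with a threshold of 0.05. Permutation tests were exact and 2-sided (scipy 1.17.1), and symbols were taken from GENCODE M21. Totals of 15253218 to 18025481 counts limit precision for genes of few counts. Alternatives were DESeq2 1.42.0, limma-voom (limma 3.58.1), other scalings, filters and thresholds, and leaving out each mouse. The code was tested on simulated data. The labels give each mouse a genotype and number, and littermates of 1 genotype were taken as replicates. The named genes are the 9 members, list genes that passed or, failing that, the 2 of smallest P, family relatives with counts (1 is not reported here), and the 5 profiles nearest to a called member. Members and lists were chosen with earlier results of these data known.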

Additional observations from a re-analysis of the deposited data

Results flagged for a closer look

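Each of 18 sets of 4 livers (9 genes in 2 genotypes) was searched for a mouse far from the other 3 of its group by Dixon's criterion, which chance alone meets now and then. In KO28 Aox1 had 2132 normalized counts, above the other MøFoxO1-KO livers at 1499 to 1596. In WT23 Aox3 had 9573 normalized counts, above the other WT livers at 4187 to 5072. Without KO28 the log2 fold change of Aox1 went from -0.38 to -0.50 (edgeR adjusted P = 0.0984), and without WT23 that of Aox3 went from 0.51 to 0.85 (adjusted P = 0.108).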

How the results depend on the processing

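Across 15 alternatives, each of the 9 genes kept the sign of its log2 fold change. Of 135 such values, 127 kept their side of the adjusted threshold, 6 lost the call (Maoa, each with 1 mouse left out) and 2 gained it (Fmo2, with DESeq2 and without the filter on low counts). The number of all genes past an adjusted P of 0.05 was 39. It was 582 with DESeq2, 205 without the filter on low counts and 24 with limma-voom, and it ran from 3 (without WT25) to 129 (without KO28) when 1 mouse was left out. It was 16 without WT22, 10 without KO26, 7 without KO27 and 14 without KO29. The number of the 9 genes past that threshold was 1. It was 2 with DESeq2, 2 without the filter, 0 with an absolute log2 fold change over 1.5 as well, and 0 to 1 with 1 mouse left out. The number at an unadjusted P under 0.05 was 5, and 3 (without KO27) to 6 with 1 mouse left out. The log2 difference of the Fmo5 to Fmo1 ratio ranged from -0.044 without WT24, which reversed its sign, to 0.20 without WT23. The differences of the Maoa to Maob ratio (-1.30 to -0.84) and of the Aox1 to Aox3 ratio (-1.22 to -0.81) kept their sign. The median of the molybdenum cofactor list was 0.06 without WT23, and that of the purine breakdown list was 0.06 without KO29. The median of the adipocyte list, 0.040 over 2 tested genes, was -3.89 without KO28 and -2.53 with limma-voom. The cause of these shifts was not tested. With 4 mice a group, permutation cannot give a P below 0.0286, and Maoa, Fmo2 and Fmo4 rest on fewer counts than the other 6 genes. The labels do not give the litter of each mouse, so no analysis paired by litter was possible.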
